A study of Mus musculus with 12 samples.

Results

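Among 593 assays of the TaqMan rodent miRNA cards, 7 read mouse entries that were named as miRNAs when the cards were made and were later taken out of miRBase, the miRNA registry. The 7 are miR-699, miR-801, miR-805, miR-720, miR-685, miR-197 and miR-715, and they were chosen because the study's own listing of fraction CT values marks them as removed. The cards were read in bone marrow cells of C57BL/6 mice sorted at 4 stages of granulocyte formation: LSK cells, promyelocytes, myelocytes and granulocytes. LSK cells are lineage-negative cells with Sca1 and cKit on their surface, a class with the stem cells and early progenitors in it, and the other stages follow in order of maturation. Each stage gave 3 kinds of RNA, namely whole cell RNA and the cytoplasmic and nuclear fractions, with 1 sample of each kind and 100 ng of RNA per sample. The labels do not say whether whole cell RNA and the fractions came from the same sorted cells, nor how many mice gave a sample. With 1 sample per stage and kind of RNA there was no replicate check and no test, and fold differences describe these 12 samples.

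A miRNA is a short RNA that Dicer cuts from a hairpin and that guides an Argonaute protein to messenger RNAs through its seed. Small RNA from other sources can be cloned and sequenced beside miRNAs, and registry entries that turned out to be pieces of transfer RNA, small nuclear RNA, ribosomal RNA or mitochondrial transcripts were withdrawn. miR-720 is regarded as a fragment of a threonine transfer RNA, a class that works in the cytoplasm as an adaptor in translation. miR-801 lies in the U11 small nuclear RNA, part of the minor spliceosome that recognises the start of a rare class of introns in the nucleus, and the RefSeq mouse annotation GRCm38.p6 lists it as a synonym of Rnu11. miR-805 was mapped to the mitochondrial genome. miR-197 is still a miRNA entry in human. An assay built for a short end of such an RNA may read the fragment, and these data do not tell how long the RNA was that each assay read.

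RefSeq's mouse miRNA table held no mature sequence of the 7 entries, so the sequences shown are those of miRNAs whose values lay near theirs across the 12 samples or that stood beside them in the comparisons of RNA kinds. They are mature sequences from RefSeq with GRCm38.p6, written 5′ to 3′ with the seed in capitals, and for a hairpin with both arms listed the assay name without a star was assumed to stand for the guide arm.
miR-690, beside miR-801: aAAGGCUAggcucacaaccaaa
miR-706, beside miR-801: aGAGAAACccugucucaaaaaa
miR-760-3p, nearest to miR-699: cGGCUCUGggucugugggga
miR-20b-5p, near miR-805: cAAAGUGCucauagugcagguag
miR-93-5p, nearest to miR-720: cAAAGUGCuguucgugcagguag
miR-19a-3p, near miR-720: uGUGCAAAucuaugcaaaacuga
The seeds of miR-20b-5p and miR-93-5p are the same, AAAGUGC, and the other 4 seeds differ from it and from each other.

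The value of an assay is its CT, the PCR cycle at which the product crosses a fixed threshold. The more template a well holds the lower its CT is, and 1 cycle corresponds to a 2-fold difference at full efficiency. An undetermined well is listed at 40, and differences were called only where at least 1 of the samples compared had a CT under 30. Between 259 and 288 of the 593 assays were under 40 in whole cell RNA, between 263 and 294 in cytoplasmic RNA and between 199 and 229 in nuclear RNA. The cell labels went with their marker miRNAs in whole cell RNA: from LSK cells to granulocytes miR-223, a granulocytic miRNA, went from a CT of 24.0 to 16.4, and miR-196b, a stem and progenitor miRNA, from 25.8 to 33.2. miR-150, which marks mature lymphocytes, was read at 25.1, 28.8, 25.6 and 25.8 from LSK cells to granulocytes, and the part of such cells in the results was not tested.

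The 7 entries fell into 4 that were read under a CT of 30 and 3 that were not. miR-699 and miR-720 were under 30 in 12 of 12 samples, miR-801 in 11 and miR-805 in 9. miR-685, miR-197 and miR-715 were never under 30. miR-720 had the lowest CT of the 7 in 11 of the 12 samples, and miR-699 had it in nuclear RNA of LSK cells. CT values of different assays also depend on how well each assay amplifies, so this order is not an order of RNA amounts.

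**Figure D1:**
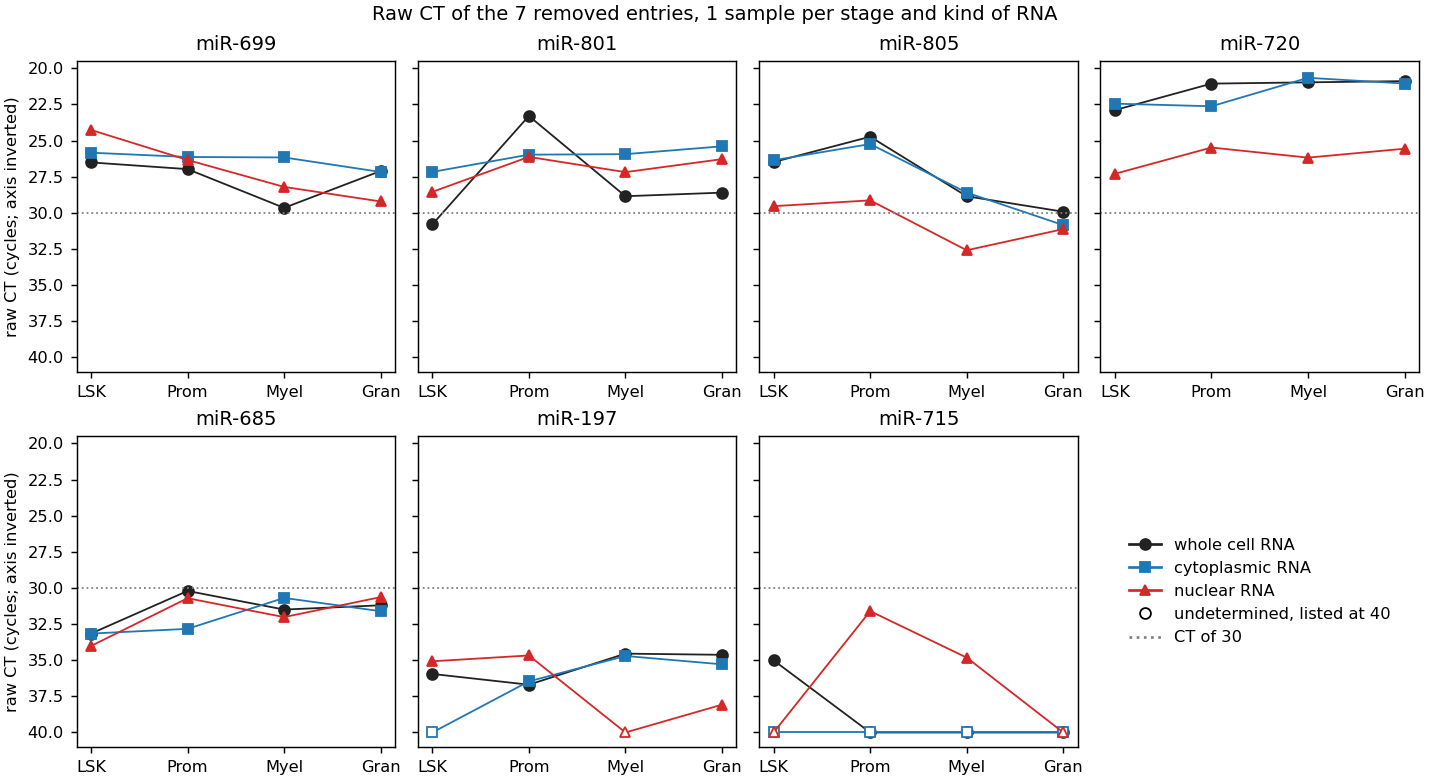
Raw CT (cycles, axis inverted so that more template lies higher) of the 7 removed entries at 4 stages, with 1 panel per entry and 1 point per sample for whole cell, cytoplasmic and nuclear RNA; Prom, Myel and Gran stand for promyelocytes, myelocytes and granulocytes. Open points are undetermined wells listed at 40, and in the panel of miR-715 several lie on top of each other; the nuclear points of miR-720 lie below its others at each stage, and the whole cell points of miR-801 swing across both fractions.

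miR-720, the threonine transfer RNA fragment, was read mostly in cytoplasmic and whole cell RNA. Its whole cell CT was 22.9 in LSK cells, 21.1 in promyelocytes, 21.0 in myelocytes and at 20.9 in granulocytes. Its cytoplasmic CT was 22.4, 22.6, 20.7 and 21.1 at the same stages, and its nuclear CT was 27.3, 25.5, 26.2 and 25.6. The nuclear value was the highest of the 3 kinds of RNA at each stage, and no nuclear value overlapped the others. On the log2 scale and after scaling, whole cell miR-720 was higher by 1.59 in promyelocytes than in LSK cells, or 1.24 above the median change of the 115 assays compared. From promyelocytes to myelocytes it changed by 0.10 and from myelocytes to granulocytes by -0.35, both under 2-fold. Granulocytes stood 1.33 above LSK cells, 0.27 above the median change of all assays. In raw cytoplasmic RNA it changed by -0.18 from LSK cells to promyelocytes and by 1.97 from there to myelocytes, where the median assay changed by 1.22. Scaled by the last 3 assays of card B, as whole cell RNA is, these changes were 1.67 and 0.29, so that the later call was lost and the step lay where it did in whole cell RNA. Scaled by the mean of the assays under 30 they were 1.03 and 0.90, so that the rise was spread over both steps. Myelocytes were the highest cytoplasmic stage with each scaling. Its cytoplasmic changes to granulocytes, 1.57 from promyelocytes and 1.39 from LSK cells, turned to -1.69 and -0.02 with the last 3 assays of card B. Across all stages miR-720 spanned 1.68 on the log2 scale in whole cell RNA, against a median span of 2.22 over all assays. In a bulk sample, fewer cells of a type and less RNA per cell cannot be told apart.

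miR-801, in the U11 small nuclear RNA, changed most of the 7 in whole cell RNA. Its whole cell CT was 30.8 in LSK cells, 23.3 in promyelocytes, 28.8 in myelocytes and at 28.6 in granulocytes. Promyelocytes thus stood far above the other stages, myelocytes and granulocytes lay within 2-fold of each other, and LSK cells were lowest. The log2 change was 7.26 from LSK cells to promyelocytes, a 153-fold difference, the highest signed change of the 115 assays compared. From promyelocytes to myelocytes it was -5.54, the lowest of 122 assays. Whole cell miR-801 was above its next stage in promyelocytes by 5.54 on the log2 scale, the widest such margin of any assay, followed by 2.39 for miR-494 and 1.51 for miR-805.

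In the fractions the differences between stages were smaller and the highest stage moved with the scaling. The cytoplasmic CT of miR-801 was 27.2, 26.0, 25.9 and 25.4 from LSK cells to granulocytes, a raw span of 1.77 on the log2 scale with granulocytes highest. The nuclear CT was 28.5, 26.1, 27.2 and 26.3, a raw span of 2.42 with promyelocytes highest. Scaled by the last 3 assays of card B, the scale on which whole cell RNA spanned 7.26, cytoplasmic miR-801 spanned 3.05 with promyelocytes highest by 1.64, and nuclear miR-801 spanned 3.41 with granulocytes highest by 0.88. Scaled by the mean of the assays under 30, promyelocytes were highest in both fractions, by 0.61 in cytoplasmic and 0.69 in nuclear RNA. The spans were then 2.41 and 2.13. Both fractions were lowest in LSK cells on each of these scales, as whole cell RNA was. Cytoplasmic miR-801 was higher by 1.19 in promyelocytes than in LSK cells while the median assay moved by -1.28, and nuclear miR-801 was higher by 2.42 in the same comparison while the median assay moved by 0.25. The nuclear decrease from promyelocytes to myelocytes, -1.06, turned to 0.35 when scaled by the last 3 assays of card B. From LSK cells to granulocytes miR-801 was higher in 3 of 3 kinds of RNA, by 1.53 in whole cell, 1.77 in raw cytoplasmic and 2.26 in raw nuclear RNA.

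miR-805, mapped to the mitochondrial genome, was lower in mature cells in every kind of RNA. Its whole cell CT was 26.5 in LSK cells, 24.7 in promyelocytes, 28.9 in myelocytes and at 29.9 in granulocytes. The cytoplasmic CT, 26.4, 25.2, 28.6 and 30.8, ran close to it at each stage. The nuclear CT was 29.5, 29.1, 32.6 and 31.1, so that nuclear miR-805 was under 30 only in LSK cells and promyelocytes. Promyelocytes held the most and the order of stages was the same in whole cell and cytoplasmic RNA. Granulocytes were below promyelocytes by -5.62 on the log2 scale in whole cell RNA, a 49.0-fold difference, and by -5.61 in raw cytoplasmic RNA. On the scale of whole cell RNA the cytoplasmic change was -8.87. The median assay moved up between these stages by 0.995 in whole cell and 1.37 in cytoplasmic RNA. In nuclear RNA the same change was -1.99 raw, and -0.60 on the scale of whole cell RNA, under 2-fold. The step from myelocytes to granulocytes was -1.51 in whole cell and -2.25 in cytoplasmic RNA, and both CT values lay near or above 30 in granulocytes.

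miR-699, for which no source RNA is given here, was lower in granulocytes than in LSK cells in each kind of RNA, by the most in nuclear RNA. Its nuclear CT was 24.3 in LSK cells, 26.3 in promyelocytes, 28.2 in myelocytes and at 29.2 in granulocytes, higher at each later stage. The cytoplasmic CT was 25.8, 26.1, 26.2 and 27.2, and the whole cell CT was 26.5, 27.0, 29.7 and 27.1. Granulocytes differed from LSK cells by -4.95 on the log2 scale in raw nuclear RNA, -1.33 in raw cytoplasmic RNA and -1.27 in scaled whole cell RNA. Scaled by the last 3 assays of card B, the nuclear change was -3.80 and the cytoplasmic change -2.75, which brought them closer. From promyelocytes to granulocytes this scaling turned the order of the fractions, with -4.30 in cytoplasmic and -1.48 in nuclear RNA, against raw changes of -1.04 and -2.87. Without scaling the whole cell change from LSK cells to granulocytes was -0.59, under 2-fold. In raw nuclear RNA the median assay moved the other way between these stages, by 1.22. Whole cell myelocytes stood apart, 3.38 below LSK cells, and whole cell RNA rose from myelocytes to granulocytes by 2.11 where cytoplasmic and nuclear RNA changed by -1.005 and -1.008.

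In each kind of RNA, at least 1 pair of stages was 2-fold or more apart for all 4 entries with a CT under 30. This is close to the share over all assays, 86.4% of 140 in whole cell RNA, 93.9% of 148 in cytoplasmic RNA and 96.2% of 78 in nuclear RNA, and says nothing of the removed entries as a group. In single steps their counts were as follows. From LSK cells to promyelocytes 3 of 4 were higher in whole cell RNA and 0 were lower, against 30.4% higher and 16.5% lower among all assays. From promyelocytes to myelocytes 3 of 4 were lower and 0 higher in whole cell RNA, against 12.3% lower and 38.5% higher. Scaled by the mean of the assays under 30 the entry counts were the same, against 23.0% lower and 28.7% higher. In raw cytoplasmic RNA 1 of 4 was lower and 1 higher in this step, against 9.76% lower and 56.1% higher, and scaled by the last 3 assays of card B 3 of 4 were lower and 0 higher, against 36.6% and 15.4% with that scaling. In raw nuclear RNA 3 of 4 were lower and 0 higher, against 39.3% and 26.8%. Scaled by the last 3 assays of card B, 1 of 4 stayed lower in this nuclear step, miR-805 at -2.04, against 8.93% of all assays lower and 41.1% higher, while miR-699 was at -0.45 and miR-801 at 0.35. From myelocytes to granulocytes miR-699 was 1 of the 2 assays lower by 2-fold or more in raw nuclear RNA, where 2.94% were lower and 69.1% higher. Scaled by the last 3 assays of card B the shares were 2.94% and 64.7%. Scaled by the mean of the assays under 30 they were 8.82% and 23.5%, with miR-699 at -1.91. miR-699 and miR-805 were lower, and miR-801 and miR-720 higher, in granulocytes than in LSK cells by 2-fold or more in 3 of 3 kinds of RNA. Each entry lost at least 1 of these calls under another scaling: miR-699 in unscaled whole cell RNA (-0.59), miR-805 in nuclear RNA (-0.44) and miR-801 in cytoplasmic RNA (0.36) with the last 3 assays of card B, miR-720 in cytoplasmic RNA with the same assays (-0.02, reversed), and miR-801 (0.80) and miR-720 (0.60) in whole cell RNA and miR-720 in nuclear RNA (0.91) with the mean of the assays under 30. Among all assays 16.3% were lower and 51.1% higher between these stages in whole cell RNA, 36.2% and 34.0% in cytoplasmic RNA, and 18.9% and 52.7% in nuclear RNA. In unscaled whole cell RNA these shares were 10.4% and 66.7%. With the last 3 assays of card B they were 58.9% and 9.93% in cytoplasmic RNA and 6.76% and 73.0% in nuclear RNA. With the mean of the assays under 30 they were 25.2% and 38.5% in whole cell RNA and 27.0% and 41.9% in nuclear RNA.

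**Figure D2:**
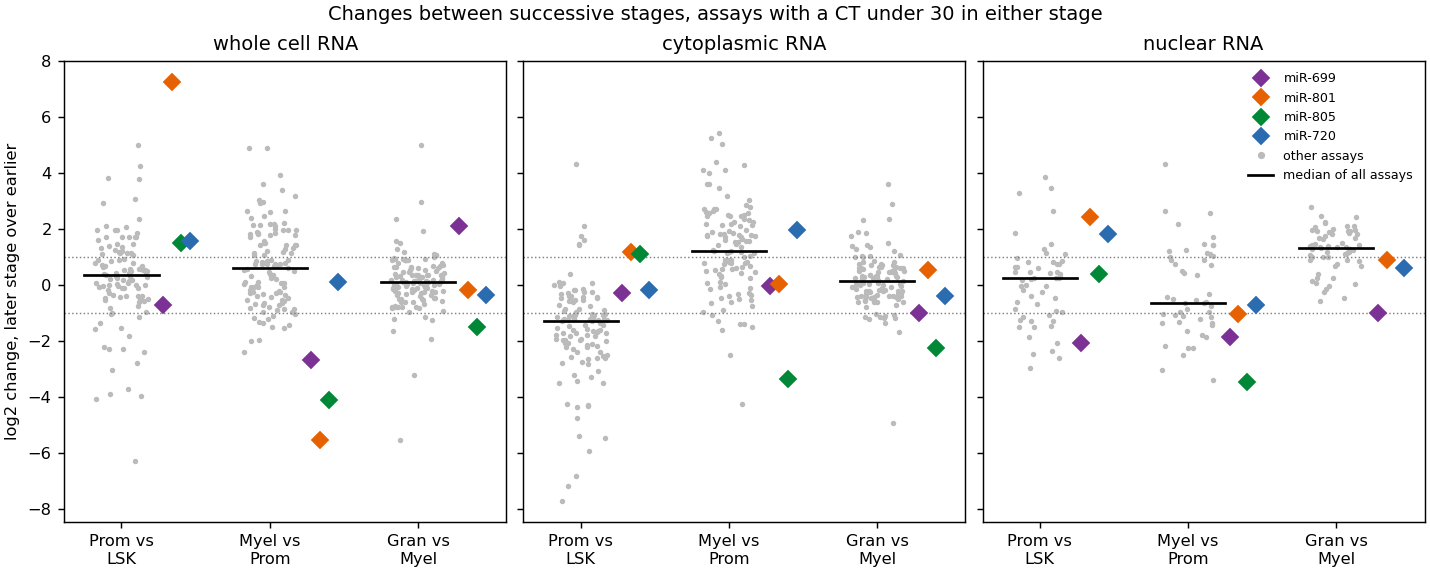
Log2 change between successive stages in the 3 kinds of RNA, scaled in whole cell RNA and raw in the fractions, for assays with a CT under 30 in either stage; grey points are other assays determined in both stages, black lines the median of all assays compared, diamonds the 4 entries and dotted lines 2-fold. miR-801 lies at 7.26 and then -5.54 in whole cell RNA, and closer to the other entries in the raw fractions.

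The nuclear:cytoplasmic ratio asks how much of an RNA was read in the nucleus, and it was taken as called where the nuclear CT was under 30 and the ratio over 0.1. Among the 4 entries, miR-699 and miR-801 passed in at least 1 stage, against 30.8% of the 78 assays under a nuclear CT of 30. Of the named assays alone 19.7% passed. By stage, 6 of 14 pairs of an entry and a stage passed, against 28.8% of the 215 pairs of all assays. The ratio of miR-699 was 0.992, 0.289, 0.0811 and 0.0809 from LSK cells to granulocytes, so that it was called in LSK cells and promyelocytes. The ratio of miR-801 was 0.128, 0.300, 0.141 and 0.180, over the limit at each stage. Among all assays 27.8% passed in LSK cells, 39.6% in promyelocytes, 28.3% in myelocytes and 22.4% in granulocytes. Beside them stand 5 nuclear candidates of the study on card B. From LSK cells to granulocytes miR-706 had ratios of 0.570, 1.89, 0.294 and 0.166 and miR-709 had 0.236, 0.423, 0.116 and 0.244, each higher than miR-801 in 3 of the 4 stages. miR-690 had 0.142, 0.294, 0.110 and 0.0820, lower than miR-801 in 3 of the 4. miR-135a* had 0.104, 0.141, 0.129 and 0.242, over the limit at each stage as miR-801 was. miR-467a* had 0.260, 1.28, 0.138 and 0.0635, with nuclear CT values over 30 in the last 2. In the paper's individual PCR assays, miR-135a* did not appear nuclear-enriched at any stage, and miR-467a* was so only in LSK cells and promyelocytes. Passing the limit on the cards therefore does not by itself show nuclear enrichment. The paper reports no such individual assay for miR-801 or miR-699.

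The median ratio differed between the cards and between the stages. The cards are not marked in the table and were told apart by a change in the number of decimals of the CT. By this, miR-699, miR-801, miR-805 and miR-720 are all on card B, where the median ratio was 0.236, 0.366, 0.135 and 0.0820 from LSK cells to granulocytes, while on card A it was 0.0211, 0.0511, 0.0262 and 0.0573. Against its own card's median, the ratio of miR-801 was 0.544, 0.818, 1.04 and 2.20 times as high, and that of miR-699 was 4.21, 0.789, 0.603 and 0.988 times. The last 3 assays of card B had median ratios of 3.82, 16.2, 1.80 and 0.610 at the 4 stages, so the ratio of miR-801 was well under theirs at each stage. The part of the card and of the fractions' purity in these ratios was not tested.

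miR-720 and miR-805 lay on the cytoplasmic side. The ratio of miR-720 was 0.0115, 0.0461, 0.00725 and 0.0146 in the order of maturation. It was the lowest of 46 assays in myelocytes and of 67 in granulocytes. Counted from the highest ratio, miR-720 ranked 50 of 54 in LSK cells and 34 of 48 in promyelocytes. The ratio of miR-805 was 0.0368 in LSK cells, 1.46 times the median of the assays compared, and 0.0224 in promyelocytes, the lowest of 48. Its value of 0.275 in granulocytes rests on a nuclear CT of 31.1 and was not called.

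**Figure D3:**
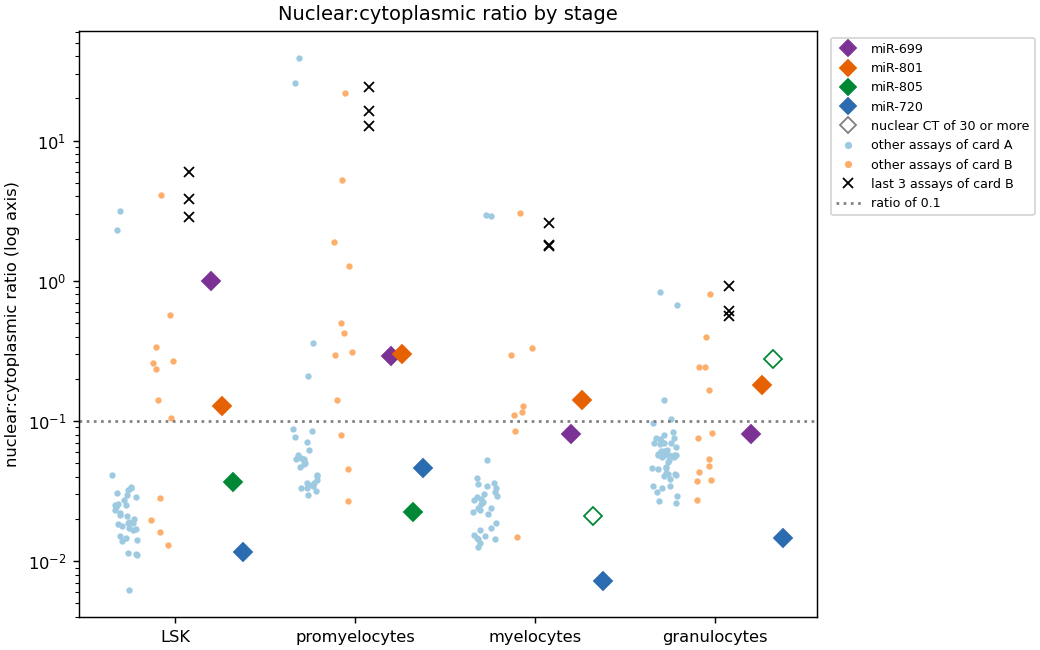
Nuclear:cytoplasmic ratio on a log axis at each stage; points are other assays of card A and card B with a nuclear CT under 30, crosses the last 3 assays of card B, diamonds the 4 entries (open where the nuclear CT was 30 or more) and the dotted line the limit of 0.1. miR-801 lies above the limit at each stage, miR-699 in LSK cells and promyelocytes, and miR-720 lies at the foot of the assays in myelocytes and granulocytes.

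Whole cell and cytoplasmic CT values of a stage were also set side by side, relative to the median of cytoplasmic minus whole cell CT over the assays under 30 in both. That median was -1.22 cycles in LSK cells, where whole cell wells were the later ones, 0.61 in promyelocytes, 0.14 in myelocytes, and 0.50 at the last stage. Relative to it the difference was 2-fold or more in 7 of 16 pairs of an entry and a stage, against 5.51% to 18.4% of all assays by stage. In at least 1 stage it was so for miR-699, miR-801 and miR-805, against 24.4% of 156 assays. Without the median the share of all assays was 76.3%, with 3 entries counted, miR-720 in place of miR-805, and with CT limits of 32 and 35 it was 38.7% and 63.3%, with 4 entries. miR-801 passed at each stage, with whole cell RNA the lower one by 5.34-fold in LSK cells, 8.26-fold in myelocytes and 13.1-fold in granulocytes, but the higher one by 4.20-fold in promyelocytes. The shares of all assays that passed were 18.4%, 15.2%, 11.9% and 5.51% in the order of maturation. miR-699 was lower in whole cell RNA by 12.3-fold in myelocytes, the widest difference of 118 assays there, and by 2.73-fold in promyelocytes. miR-805 was higher by 2.13-fold in LSK cells, and miR-720 stayed under 2-fold at each stage.

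Whole cell RNA holds both fractions, and for most assays its CT lay between or below theirs. A CT at least 1 cycle above both fractions, a measure chosen after the values were seen, was found in 8 pairs of an assay and a stage. Of these 8, miR-801 made 3 and miR-699 made 1, and miR-706, miR-690 and miR-467a* made the other 4. All 8 pairs are on card B. miR-801 was above both fractions by 2.25 cycles in LSK cells, 1.67 in myelocytes and 2.32 in granulocytes, the highest value at each of these stages, where 3.39%, 1.8% and 1.64% of assays passed, and 0.0% passed in promyelocytes. In promyelocytes it was 2.68 cycles below both fractions, as 18.7% of assays were by at least 1 cycle there, against 0.847% in LSK cells, 3.6% in myelocytes and 10.7% in granulocytes. miR-720 was also below both in promyelocytes, by 1.57 cycles. miR-699 was above both by 1.45 cycles in myelocytes.

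**Figure D4:**
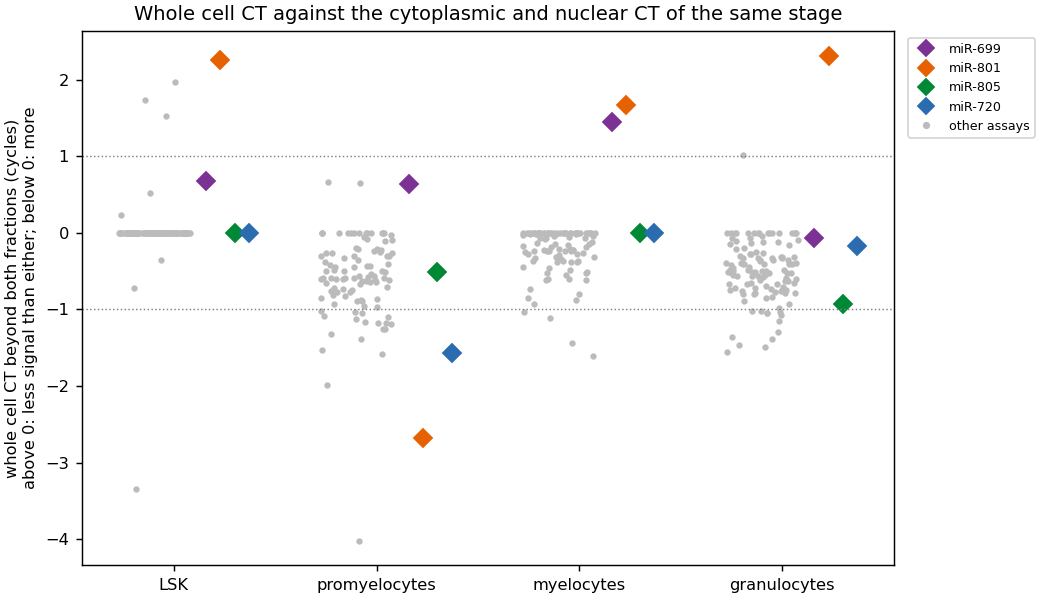
Cycles by which the whole cell CT lay above both fractions (over 0, less signal than either) or below both (under 0, more signal), for assays under 30 in at least 1 of the 3 kinds of RNA and determined in all; 0 means that it lay between them. Diamonds are the 4 entries and dotted lines 1 cycle; miR-801 is the highest point in LSK cells, myelocytes and granulocytes and among the lowest in promyelocytes.

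The remaining 3 entries were read late or in few samples, and no difference of theirs was called. miR-685 was determined in 12 of 12 samples, with CT values from 30.2 in whole cell promyelocytes to 34.0 in nuclear LSK cells. Its LSK value was the highest of the 4 stages in each kind of RNA. miR-197 was determined in 10 samples, with CT values from 34.5 up, and undetermined in cytoplasmic LSK cells and nuclear myelocytes. miR-715 was determined in 3 samples, at 35.01 in whole cell LSK cells, 31.6 in nuclear promyelocytes and 34.8 in nuclear myelocytes, and in no cytoplasmic sample. At these CT values single wells do not tell a low level from none.

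The assays nearest to each entry were found by the root mean square difference of their CT profiles over the 12 samples, each profile centred on its own mean, among 96 assays under 35 in all samples. miR-720 lay nearest to miR-93, at 0.602 cycles, then miR-19a at 0.724 and miR-15b* at 0.738. miR-93 and miR-19a come from the related clusters miR-106b-25 and miR-17-92. miR-805 lay nearest to an assay without a name here, at 1.17 cycles, then miR-378 at 1.27 and miR-20b at 1.33. miR-801 lay nearest to an unnamed assay at 1.15 cycles, then miR-690 at 1.48 and miR-685 at 1.53, and miR-699 lay nearest to miR-760 at 1.33. miR-685 lay nearest to miR-709, at 0.976 cycles. Samples of 1 stage carry the same cell label, and the likeness is a description over 12 points.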

How the data were processed

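The deposited table holds raw CT values, which the authors called with SDS and RQ Manager software and left without normalization, from 1 well per assay and sample. No genome build is given for the table. Its assays carry numbers in place of names. An assay took a name if its CT values in both fractions equalled those of a published list within 0.0005 cycles, or if its whole cell differences, put on the scale of a published list by a fitted line (slope 1.71 and a constant per pair of stages), matched that list within 0.002, which named 270 of 593 assays and each of the 7 entries. The 7 entries and the comparisons were chosen with earlier results of these data known.

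Whole cell log2 changes are CT differences less the change in the mean of the last 3 assays on card B, with no slope applied. These 3 assays are unnamed here and were chosen because their change equals the constants of that line. Their nuclear:cytoplasmic ratios ran from 0.564 to 24.2, and what they measure bears on fraction values scaled by them. Card membership was inferred from the decimals of the CT. Cytoplasmic and nuclear changes are raw CT differences. Assays 2-fold apart with a CT under 30 in at least 1 of the samples compared were called. The nuclear:cytoplasmic ratio is 2 raised to the CT difference and divided by 3 for cell equivalents. Differences between whole cell and cytoplasmic CT were centred on the median. Assays were named in the text where they were entries, markers, among the 3 nearest by profile, nuclear candidates of the study, or singled out after their values were seen, as miR-494 was. No test was made, since each stage and kind of RNA has 1 sample, and 1 well gives no estimate of the error of a CT.

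Alternatives changed the scaling, the CT limit (28, 32 or 35), the fold limit (1.5 or 3), the fold per cycle (1.9), the divisor and limit of the ratio, and the assays compared. Leaving out a stage was added after the data were seen. The procedures were tested on simulated data. Python 3.11.15 with numpy 2.4.6, pandas 2.3.3 and matplotlib 3.10.9 was used. Gene names come from RefSeq, GRCm38.p6. The mRNA arrays and cell lines were not analysed here.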

Additional observations from a re-analysis of the deposited data

Results flagged for a closer look

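miR-699 changed in opposite directions between myelocytes and granulocytes in different kinds of RNA. It was higher in granulocytes by 2.11 on the log2 scale in whole cell RNA, and lower in cytoplasmic RNA (-1.005) and in nuclear RNA (-1.008), each just past 2-fold as raw values. At 1.9-fold per cycle these were -0.9306 and -0.9334, under the limit. Scaled as whole cell RNA is, by the last 3 assays of card B, they were -2.60 and -1.03, and by the mean of the assays under 30 they were -1.13 and -1.91, past the limit. The difference between the kinds of RNA was not tested, since each is 1 sample. The whole cell myelocyte CT of 29.7 is the highest of its 12 values. Among all assays, 17 of 265 changes called in both whole cell and cytoplasmic RNA were opposite (6.42%), and 6 of 129 in whole cell and nuclear RNA (4.65%).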

How the results depend on the processing

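With 1 well and 1 sample per stage and kind of RNA, detection limits the values above 30 cycles and the error of a difference is unknown. No paired analysis was possible because no group has more than 1 sample, and for the same reason no replicate could be left out. The 51 called stage changes of the entries were repeated 255 times under alternatives that could end a call: 208 stayed past their limit in the same direction, 44 kept their direction but were under a limit and 3 reversed. Looser limits, undetermined wells at 35 and the named assays alone could not end one. The 3 were scaled by the last 3 assays of card B: miR-720 in cytoplasmic RNA, -1.69 for granulocytes against promyelocytes and -0.0223 against LSK cells, and miR-801 in nuclear RNA, 0.35 for myelocytes against promyelocytes. The count of 4 entries that changed in nuclear RNA was 7 at a CT limit of 35, with undetermined wells at 40 in some of the added ones. At that limit 95.4% of all assays changed in nuclear RNA. The count of 2 entries over the ratio limit was 4 without the divisor, when 88.5% of all assays passed. This count was 1 with 4 times the median ratio of the card and stage as the limit, when 19.2% of all assays passed. At nuclear CT limits of 32 and 35 the count was 5 and 6, when 31.25% and 45.6% of all assays passed. When only assays under 30 in all 12 samples were compared, 2 of the entries were left, miR-699 and miR-720, and 4 of their 6 nearest assays were shared, where the wider comparison had 15 for 5 entries. Leaving out any 1 stage, chosen after seeing the data, gave 3 or 4 entries changed in each kind of RNA.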

Other observations

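Among the 96 assays under 35 in all 12 samples, the median distance from an assay to its nearest other was 0.433 cycles. The distance was 1.33 for miR-699, the second widest of the 96, and 1.17 for miR-805, 1.15 for miR-801 and 0.976 for miR-685, the fifth to seventh widest. That of miR-720 was 0.602, at rank 23. These are distances within 12 samples, with no test.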
